A study of Mus musculus with 4 samples.

Results

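The SLC25 family comprises the carriers that move metabolites across the inner mitochondrial membrane. Members were the genes whose symbol in the platform's probe-to-gene table is Slc25a followed by a number, with every probe set that names 1 of them alone. They came to 44 genes and 93 probe sets, of 18194 genes and 45101 probe sets on the array, and 41 genes with 77 probe sets were bright enough to be tested. The measurements were 4 Affymetrix Mouse430_2 arrays of whole mouse kidneys at E14.5 (embryonic day; Theiler stage 22). The wild-type group was 2 arrays, each of a pool of 2 kidneys with the strain given as CD-1. The mutant group was 2 arrays, each of a pool of 12 kidneys homozygous null for Wnt4 (allele Wnt4tm1Amc), with the strain given as 129. The protocol text, which is the same for every array, speaks of CD-1 matings only and so does not match that strain entry. The genotypes thus also differ in how many kidneys were pooled and, if the strain entries hold, in strain, and these cannot be told apart. Wnt4 is needed to turn kidney mesenchyme into the renal vesicle, so mutant kidneys form few if any vesicles or the nephron segments that arise from them. Whether the pools of a group were drawn from different litters is not stated, and the p-values reflect only how far these pools vary, which may be technical.

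SLC25 carriers are small nuclear-encoded proteins that mostly enter mitochondria without a cleaved leader and share a threefold-repeated fold. Each exchanges or imports a defined set of substrates, such as ADP for ATP, phosphate, citrate, aspartate, ornithine, acylcarnitines, iron or cofactors. They set which matrix reactions a cell can feed, and the adult proximal tubule is among the tissues richest in mitochondria.

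As a check of the labels, the brighter Wnt4 probe set read 1885 and 1770 in the wild-type pools, against 406 and 272 in the mutant pools. The groups did not overlap, and the level was 5.28-fold lower in the mutant (limma adjusted p = 0.000196). The trimmed mean signal was 500.0 on each array after rounding and medians ran from 137.5 to 159.3. For the transferrin receptor control, the ratio of 3' to 5' signal came to 4.71 and 5.10 in the wild-type pools, against 5.67 and 6.43 in the mutant pools, and its part in any result was not tested. The same ratio for Gapdh (0.744 to 0.777) and actin (1.43 to 1.59) overlapped between the groups. In whole kidneys, fewer cells of a type and less RNA per cell cannot be told apart.

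Among carriers of the core energy exchange, Slc25a5 and Slc25a3 had probe sets called lower in the mutant, while the similarly bright Slc25a4 had none. The Slc25a3 call was lost with quantile normalization (limma adjusted p = 0.363). Called lower at 1 probe set each were the ornithine carrier gene Slc25a15, the basic amino acid carrier gene Slc25a29 and Slc25a30, named after the kidney. For Slc25a15 and Slc25a29 the brightest probe set was not the one called. Slc25a24, a calcium-regulated ATP-magnesium/phosphate carrier gene, and Slc25a36, a pyrimidine nucleotide carrier gene, were higher. In all, 10 of 77 tested probe sets were lower and 2 higher at a limma adjusted p under 0.05, beside 5.39% lower and 5.41% higher among all 27022 tested probe sets. Of the 10 lower ones, 6 belong to Slc25a5 alone. Without Slc25a5, 6 of 69 probe sets (8.70%) were called in either direction, against 10.8% of all probe sets. With each gene read at its brightest tested probe set, 3 of 41 genes were lower (Slc25a3, Slc25a5 and Slc25a30) and 2 higher (Slc25a24 and Slc25a36), against 5.82% and 6.70% of 13432 genes. The share of carrier genes called, 12.2%, was thus near the background of 12.5%, and the family as a whole did not stand out. The count of genes rose to 6 lower and 5 higher without wild-type replicate 2, and fell to 1 and 1 without mutant replicate 1 and without mutant replicate 2. The share of all probe sets called moved with these counts, to 14.8% without wild-type replicate 2, 5.96% without mutant replicate 1 and 5.82% without mutant replicate 2. Without the intensity trend in the fit, 0 genes passed in either direction by limma, and of the probe sets 1 of Slc25a5 and 1 of Slc25a15 were lower, where 3.18% of all probe sets were called. With the trend, 14 of 41 carrier genes had an unadjusted p under 0.05, beside 3809 of all 13432 genes.

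Over the 77 tested probe sets the log2 difference, mutant minus wild-type on the log2(signal + 16) scale, ran from -1.43 to 0.82, with a median of -0.16 against -0.01 over all probe sets. The median over the 69 probe sets that are not Slc25a5 was -0.10, and over 1 probe set a gene it was -0.05. With quantile normalization the median was -0.09. Arrays of the groups did not overlap for 47 of 77 probe sets (61.0%), beside 54.1% of all tested probe sets. The mutant was below in 32 of the 77 and above in 15, beside 28% and 26.1% of all tested probe sets. At 1 probe set a gene, the mutant was below in 12 of 41 genes and above in 11. In this reading 56.1% of carrier genes were without overlap, beside 57.1% of all genes.

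**Figure D1:**
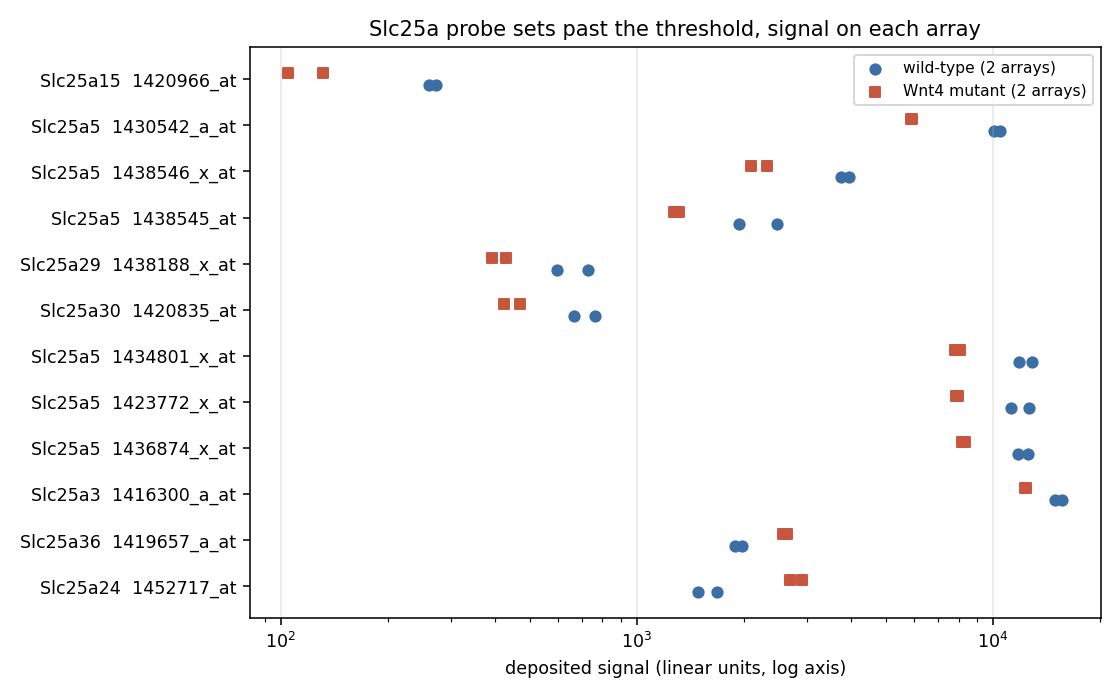
Deposited signal on each of the 4 arrays (horizontal log axis, linear signal units) for the 12 Slc25a probe sets past the adjusted p of 0.05; circles are the 2 wild-type arrays and squares the 2 Wnt4 mutant arrays. The groups do not overlap in any of the 12, and 6 of them belong to Slc25a5.

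The 250 bases upstream of the annotated start are shown for the brightest called carriers of each direction, Slc25a3 and Slc25a5 (lower) and Slc25a24 and Slc25a36 (higher), so that their start regions can be compared. Sequences are from RefSeq (GRCm38.p6), on the gene's strand, at chr10:91123968-91124217 (minus), chrX:36795347-36795596 (plus), chr3:109122899-109123148 (plus) and chr9:97111042-97111291 (minus). Capitals mark matches on either strand to 5 motifs, which are GGGCGG, the GC box, then CCAAT, the CCAAT box, then TGACGTCA, the cyclic AMP response element, then TATAA, the TATA box, and the NRF1 element.
Slc25a3: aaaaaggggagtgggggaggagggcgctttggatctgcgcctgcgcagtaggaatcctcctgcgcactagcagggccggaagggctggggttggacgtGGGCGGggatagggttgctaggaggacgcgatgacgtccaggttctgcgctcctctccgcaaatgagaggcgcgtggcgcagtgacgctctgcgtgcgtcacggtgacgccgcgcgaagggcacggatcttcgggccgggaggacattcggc
Slc25a5: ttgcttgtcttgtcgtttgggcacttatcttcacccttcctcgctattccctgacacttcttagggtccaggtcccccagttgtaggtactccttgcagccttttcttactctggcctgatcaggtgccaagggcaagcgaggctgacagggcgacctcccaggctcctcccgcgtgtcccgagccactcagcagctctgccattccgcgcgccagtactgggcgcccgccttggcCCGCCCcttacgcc
Slc25a24: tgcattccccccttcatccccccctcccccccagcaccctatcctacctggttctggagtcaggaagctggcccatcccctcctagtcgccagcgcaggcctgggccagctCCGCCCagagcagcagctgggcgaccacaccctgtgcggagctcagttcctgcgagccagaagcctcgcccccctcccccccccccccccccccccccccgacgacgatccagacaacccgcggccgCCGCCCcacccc
Slc25a36: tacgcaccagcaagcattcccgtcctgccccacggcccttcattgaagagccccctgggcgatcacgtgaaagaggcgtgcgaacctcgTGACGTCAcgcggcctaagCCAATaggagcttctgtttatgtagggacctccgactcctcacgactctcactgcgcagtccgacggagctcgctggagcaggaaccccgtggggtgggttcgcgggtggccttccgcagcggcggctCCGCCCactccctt
Each of these regions held the GC box letters, 1 match in Slc25a3, Slc25a5 and Slc25a36 and 2 in Slc25a24. Only the Slc25a36 region also held the CCAAT box and the cyclic AMP response element, with 1 match each. Whether any motif separates the lower from the higher carriers was not tested, as the regions shown are too few. Of the 44 genes, 34 had an entry, and 25 of these (73.5%) held a GC box match, beside 35.4% of all 27025 genes in the table. The table holds more genes than the 18194 on the array and was not limited to genes bright enough to be tested. The sets are thus unlike, and these shares do not set the carriers apart from other expressed genes. The CCAAT box was matched in 17 of 34 (50%, against 37.5%), the cyclic AMP response element in 2 (5.88%, against 1.77%) and the TATA box letters in 2 (5.88%, against 25.8%). The NRF1 element was matched in 0 of 34, against 0.877% of all, a share too low for 0 of 34 to be informative. Only exact matches of all its letters were counted. A match is only a match of letters. No matches overlap in the sequences printed.

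Adenine nucleotide and phosphate exchange supplies the ATP synthase with ADP and phosphate and exports ATP. Slc25a5, the ADP/ATP translocase that predominates in dividing cells, read 12557 and 11733 in the wild-type pools, against 8166 and 8343 in the mutant pools at its brightest probe set. Both mutant arrays were below both wild-type arrays, a 1.47-fold lower level (log2 difference -0.56 ± 0.08 SE, n = 2 and 2, limma adjusted p = 0.00371). The steepest difference was at another bright probe set, which read 10464 and 10073 against 5904 and 5867. There the level was 1.74-fold lower (adjusted p = 0.000545), and this probe set passed under every alternative run. Of 8 tested Slc25a5 probe sets, 6 were lower and all had a negative difference, from -0.80 to -0.34. The exceptions read 2811 and 3941 against 2848 and 2434, with overlap, and 2128 and 2672 against 1883 and 1777, without it (adjusted p = 0.221 and 0.0859). The probe sets share 1 target, and 6 of the 8 carry the suffix that marks probes shared with other sequences, so signal from near-identical copies of the gene cannot be told apart from its own. Of the remaining 2, both were lower.

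Slc25a3, the phosphate carrier, was the brightest member and read 15663 and 14934 in the wild-type pools, against 12346 and 12325 in the mutant pools. The groups did not overlap, and the level was 1.24-fold lower (log2 difference -0.31 ± 0.07 SE, adjusted p = 0.0359). That call was lost with quantile normalization, where the difference was -0.09 (adjusted p = 0.363). The same held with the replicate number as a block (0.111), with no brightness filter (0.105), and where each array was set to its own median (0.250). It was also lost on leaving out either mutant array (adjusted p = 0.204 without replicate 1 and 0.200 without replicate 2), or wild-type replicate 1 (0.0623). A dim second probe set read 110 and 111 against 98.0 and 144 and did not pass, and the mean of both gave a difference of -0.11 (adjusted p = 0.593).

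Slc25a4, the translocase of heart and skeletal muscle, read 11539 and 11215 in the wild-type pools, against 10796 and 9812 in the mutant pools at its brightest probe set. The mutant arrays were the lower ones at all 3 tested probe sets, with differences from -0.17 to -0.14, but none passed (adjusted p = 0.239 to 0.319). The 95% interval at the brightest was -0.33 to 0.04. A further probe set, too dim to be tested, read 40.1 and 39.4 against 104 and 121, the opposite order. The ratio of Slc25a5 to Slc25a4 at their brightest probe sets was lower in the mutant by 0.41 on the log2 scale, with no overlap. An exact two-sided permutation test gave 0.33, the smallest p that 2 arrays against 2 allow, and the same value after adjustment over the 7 pairs of related members compared this way. All of these pairs were without overlap, so the lack of overlap does not set this pair apart. Slc25a31, the translocase of germ cells, was too dim to be tested, at 13.8 and 15.4 against 66.3 and 16.9.

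**Figure D2:**
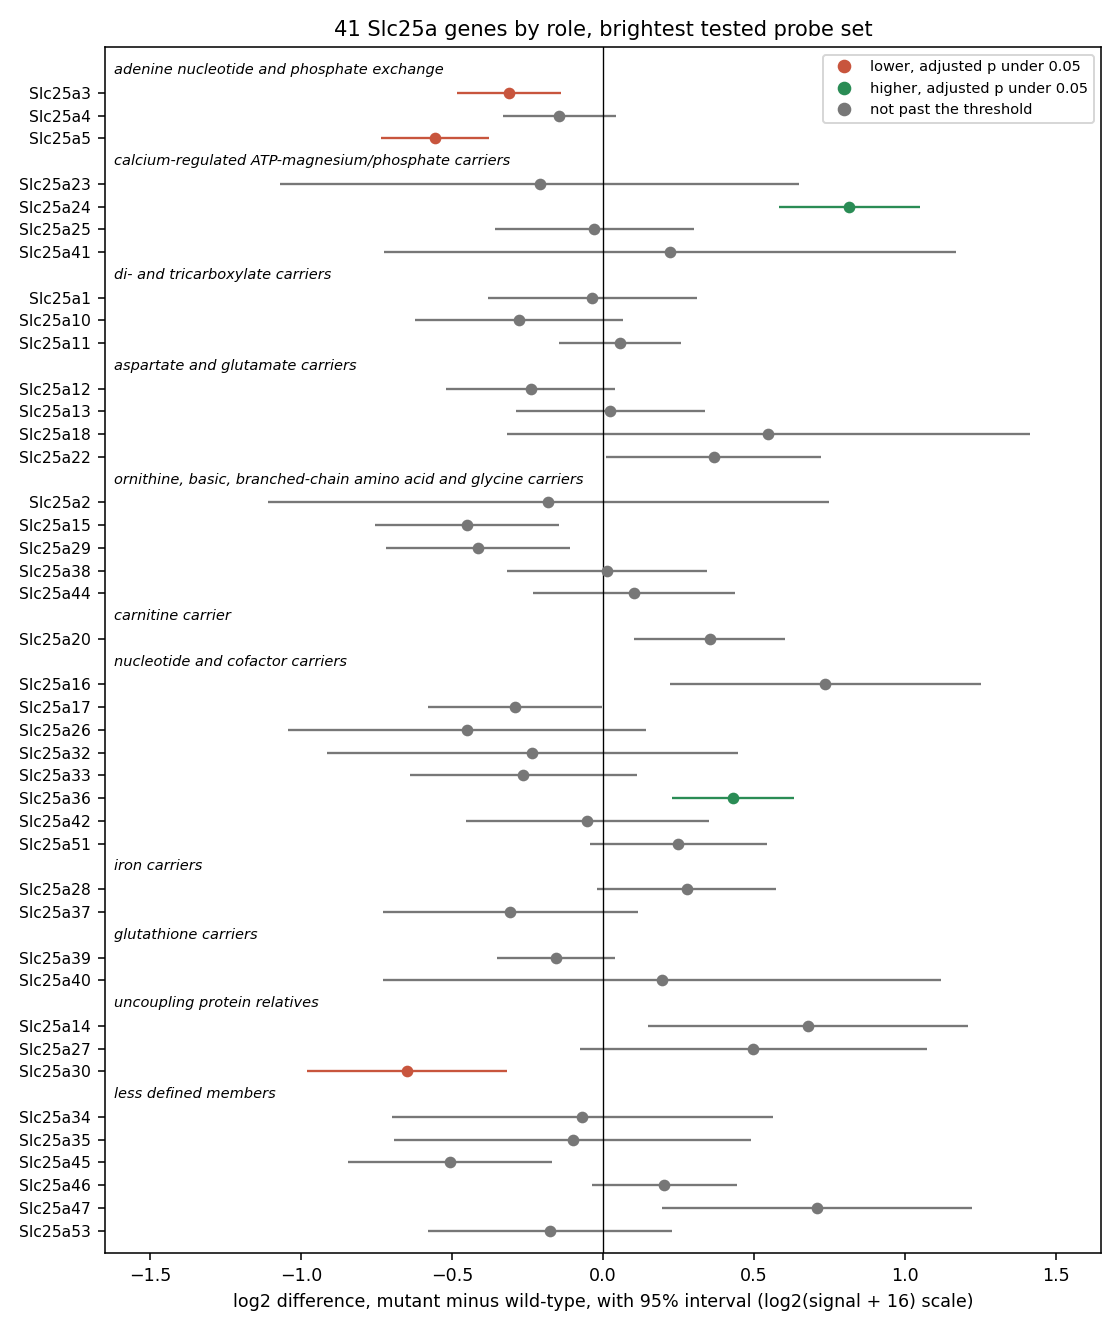
Log2 difference, mutant minus wild-type, with its 95% interval from the limma fit (horizontal axis, log2(signal + 16) scale), for the 41 tested Slc25a genes at their brightest probe set, grouped by role. The 5 coloured genes passed the adjusted p of 0.05, and the intervals of 14 genes exclude 0.

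The ATP-magnesium/phosphate carriers adjust the size of the matrix adenine nucleotide pool in response to calcium. Slc25a24 read 1680 and 1483 in the wild-type pools, against 2904 and 2686 in the mutant pools. Both mutant arrays were above both wild-type arrays, a 1.76-fold higher level (log2 difference 0.82 ± 0.10 SE, adjusted p = 0.00213), and this was the highest difference of any tested member. The call held without each array in turn (differences 0.73 to 0.91) and was lost only without the intensity trend (adjusted p = 0.0588). A dimmer probe set read 447 and 500 against 639 and 694, also without overlap, and did not pass (1.40-fold, adjusted p = 0.0661).

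Its paralogues did not pass. Slc25a25 read 490 and 460 against 460 and 470, with a difference of -0.03 and a 95% interval of -0.36 to 0.30. For Slc25a23 the wild-type arrays themselves differed, at 893 and 330, against 499 and 440 in the mutant, and the interval ran from -1.07 to 0.65. Slc25a41 was dim, at 130 and 97.6 against 83.6 and 211. The ratio of Slc25a24 to Slc25a25 was higher in the mutant by 0.85 on the log2 scale. There was no overlap, as in every pair compared, and again the smallest exact permutation p, 0.33.

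Among carriers of amino acids, Slc25a15 imports ornithine for the urea cycle and for polyamine and proline metabolism. Its brighter probe set read 699 and 758 in the wild-type pools, against 554 and 506 in the mutant pools, without overlap, and did not pass (1.37-fold lower, adjusted p = 0.0689). At the dimmer one the signals were 260 and 273 against 131 and 105. That was a 2.12-fold lower level (log2 difference -1.08 ± 0.24 SE, adjusted p = 0.0260). The call was lost with no brightness filter (0.0731). It was also lost without wild-type replicate 2 (difference -1.05) and without mutant replicate 2 (difference -0.94).

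Slc25a29 carries arginine, lysine and other basic amino acids. Its brightest probe set read 663 and 739 against 523 and 519, without overlap (1.33-fold lower, adjusted p = 0.0885). The called probe set read 598 and 729 against 430 and 392 (1.59-fold lower, adjusted p = 0.0315). It carries the suffix that marks probes shared with other sequences, and so was absent from the run without such probe sets. That call ended with no brightness filter (adjusted p = 0.0591). It also ended on leaving out mutant replicate 1 (difference -0.73), mutant replicate 2 (-0.60) or wild-type replicate 2 (-0.53). At a dimmer probe set the 2 mutant arrays disagreed, at 56.0 and 358, against 349 and 321 in wild-type kidneys. All 4 tested probe sets had a negative difference, from -1.43 to -0.41, and their mean did not pass (adjusted p = 0.0664).

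No other gene of the amino acid group passed. Slc25a38, the glycine carrier needed for haem synthesis, read 736 and 740 against 841 and 660. Slc25a44, a carrier of branched-chain amino acids, had differences of 0.10, -0.54 and 0.01 at its 3 probe sets. Slc25a2, a second ornithine carrier gene, was near the lowest level tested, at 85.9 and 132 against 62.5 and 133.

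Of 3 members related to uncoupling proteins, 1 was lower, beside 5.82% of all genes, and the others did not pass. Slc25a30, the kidney mitochondrial carrier, read 664 and 760 in the wild-type pools, against 425 and 471 in the mutant pools. The groups did not overlap, and the level was 1.57-fold lower (log2 difference -0.65 ± 0.14 SE, adjusted p = 0.0259). Its 2 other tested probe sets read 547 and 645 against 410 and 452, and 268 and 339 against 181 and 111. Neither passed (adjusted p = 0.104 and 0.0547), though both had no overlap, and the mutant was also below at the 2 probe sets too dim to be tested. The call was lost on leaving out either mutant array (0.130 without replicate 1 and 0.0635 without replicate 2), or wild-type replicate 2 (0.0542). Slc25a14, a carrier first described in brain, read 174 and 210 against 270 and 369, and Slc25a27, another brain carrier, read 120 and 146 against 200 and 188. Both had no overlap and higher mutant values, and neither passed (adjusted p = 0.104 and 0.259).

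Carriers of nucleotides and cofactors were 1 higher, 0 lower and 7 not passing (12.5% called, the same share as over all genes, 12.5%). Slc25a36, which moves pyrimidine nucleotides into mitochondria, read 1880 and 1975 in the wild-type pools, against 2641 and 2564 in the mutant pools. The mutant arrays were both above, a 1.35-fold higher level (log2 difference 0.43 ± 0.09 SE, adjusted p = 0.0189). That call was lost without mutant replicate 1 (0.136), without mutant replicate 2 (0.101) and where each array was set to its own median (0.101). Its 2 further probe sets had differences of 0.10 and 0.38 and did not pass, nor did the mean of all 3 (adjusted p = 0.119). Slc25a33, the other pyrimidine nucleotide carrier, read 470 and 595 against 451 and 425 (difference -0.26, adjusted p = 0.366).

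In the same group, Slc25a16, linked to coenzyme A transport, read 159 and 223 against 330 and 321, a 1.67-fold difference with no overlap that did not pass (adjusted p = 0.0752). Slc25a42, the coenzyme A carrier, read 347 and 421 against 350 and 387. Slc25a51, the NAD carrier, had probe sets that went apart: the brighter read 2004 and 2552 against 2857 and 2535 (difference 0.25), and the other 1630 and 1005 against 877 and 717 (difference -0.68). Neither passed (adjusted p = 0.268 and 0.0817). Slc25a17, a carrier of the peroxisomal membrane, had a difference of -0.29 (adjusted p = 0.190). Slc25a26, which imports S-adenosylmethionine, had one of -0.45 (0.326), and Slc25a32, linked to folate and FAD transport, one of -0.23 (0.688).

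The carriers of the malate-aspartate and citrate shuttles gave no calls. In the di- and tricarboxylate group limma called 0 of 3 tested genes, beside 12.5% of all genes, and 0 had an unadjusted p under 0.05. At that share, 0 calls in so small a group are not informative. Slc25a11, the oxoglutarate/malate carrier, read 2110 and 2116 against 2152 and 2244, with a 95% interval of -0.15 to 0.26. Slc25a1, the citrate carrier, read 1812 and 2201 against 2246 and 1690. Slc25a10, the dicarboxylate carrier, had differences of -0.28 and -0.32 at its 2 probe sets (adjusted p = 0.292 and 0.151). In the aspartate and glutamate group limma called 0 of 4, which is not informative either, with 1 at an unadjusted p under 0.05. That was Slc25a22, a glutamate carrier, which read 673 and 515 against 786 and 743 (adjusted p = 0.182). The aspartate/glutamate exchanger Slc25a12 had a negative difference at all 3 probe sets, -0.24 at the brightest (adjusted p = 0.266), while its paralogue Slc25a13 read 699 and 748 against 672 and 806. The second glutamate carrier, Slc25a18, was dim, at 131 and 66.7 against 116 and 181.

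Among the remaining carriers of known substrate, Slc25a20, the carnitine/acylcarnitine carrier of fatty acid oxidation, read 1010 and 1052 against 1250 and 1398. It was 1.28-fold higher with no overlap and did not pass (adjusted p = 0.0780). The mitoferrins import iron. Slc25a37, the mitoferrin of red cell precursors, read 940 and 637 against 649 and 596 (difference -0.31, adjusted p = 0.349), and Slc25a28 read 570 and 604 against 749 and 681 (difference 0.28, adjusted p = 0.225). Embryonic globins were higher on the same arrays: 3 of 5 tested erythroid marker genes were higher and 0 lower, beside 6.70% and 5.82% of all genes. The glutathione carrier Slc25a39 was bright, at 7868 and 7040 against 6657 and 6701, and its 4 tested probe sets all had differences between -0.16 and -0.02 without a call. Its paralogue Slc25a40 read 226 and 113 against 268 and 129.

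Of 6 tested members of less settled role, limma called 0, beside 12.5% of all genes, and 2 had an unadjusted p under 0.05. Slc25a45 read 615 and 550 against 394 and 415 (1.42-fold lower, adjusted p = 0.0648). It passed when each gene was read as the mean of its tested probe sets (adjusted p = 0.0379), as did Slc25a5, Slc25a15, Slc25a30 and Slc25a24, which kept their directions. Read that way, Slc25a3, Slc25a29 and Slc25a36 did not pass. Slc25a47, a gene known from liver, read 167 and 240 against 339 and 335 and did not pass (adjusted p = 0.0850). Slc25a46 acts at the outer membrane in mitochondrial shape. Its 2 probe sets did not overlap in opposite directions, at 1478 and 1392 against 1558 and 1757 and at 1551 and 1612 against 1399 and 1346. Slc25a34 and Slc25a35 had differences of -0.07 and -0.10, and Slc25a53 one of -0.18 at its brighter probe set and 0.68 at its dimmer one, none past the threshold. The 3 genes below the tested range were Slc25a31, Slc25a48 and Slc25a54.

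**Figure D3:**
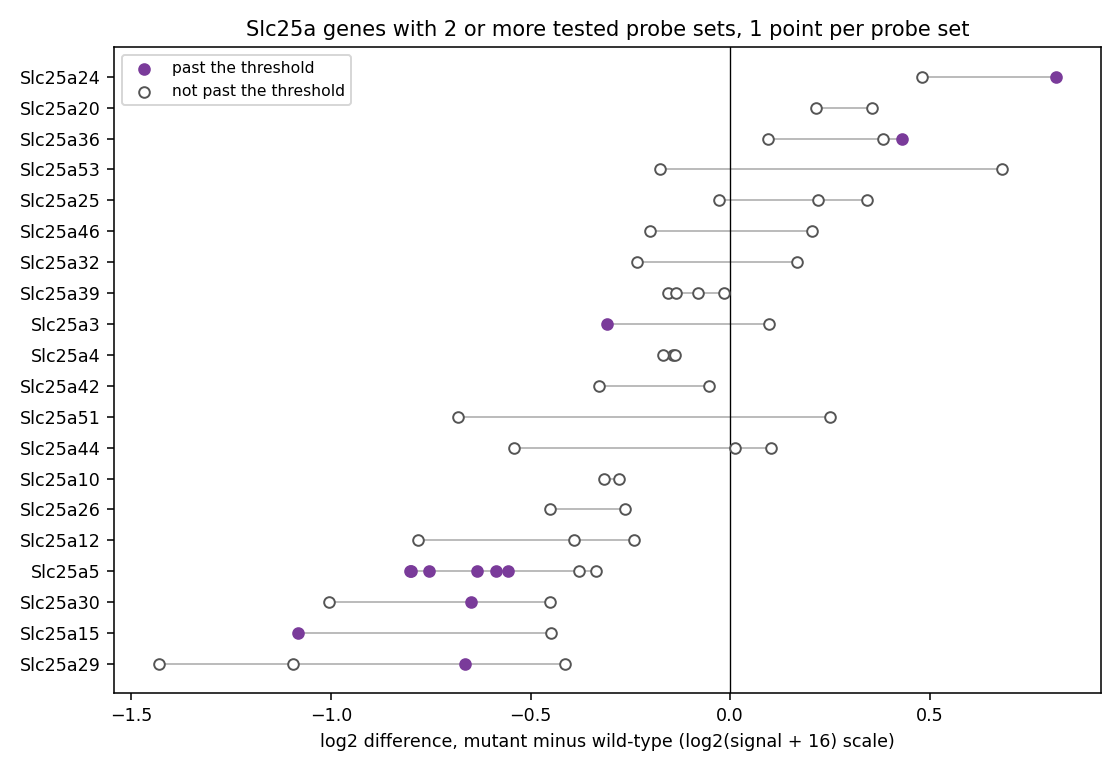
Log2 difference, mutant minus wild-type (horizontal axis, log2(signal + 16) scale), for the 20 Slc25a genes with several tested probe sets, 1 point per probe set; filled points passed the adjusted p of 0.05. In 13 genes all points lie on 1 side of 0, and in 7 genes they lie on both.

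How far probe sets of a gene went together can be read from the 20 genes with several tested. In 13 of them all differences had 1 sign, among them 6 of the 7 called genes, and the called exception was Slc25a3. Of the 7 called genes' tested probe sets, 12 did not pass, and none was called in the opposite direction. In Slc25a46 alone of the 20, probe sets without overlap pointed both ways. Where a probe set lies in a transcript was not analysed here.

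Genes that work with the carriers were, where called at their brightest probe set, lower. A list of further carriers and relatives held sideroflexins, uncoupling proteins, pyruvate carrier subunits and the carrier relatives Mtch1 and Mtch2 of the outer membrane. Of its 9 tested genes 1 was lower and 0 higher (11.1%, beside 12.5% of all genes called). It was Sfxn1, the serine carrier, which read 3212 and 2801 against 1957 and 2083 (1.48-fold, adjusted p = 0.0101), and its dimmer probe set overlapped (0.694). Ucp1 was too dim to be tested. Among the 3 voltage-dependent channels of the outer membrane 1 was lower, beside 5.82% of all genes. It was Vdac1, at 13558 and 11697 against 9146 and 9902 (1.32-fold, adjusted p = 0.0320), and none of its 4 further probe sets passed. Vdac2 read 8060 and 8171 against 6098 and 6888 and missed the threshold (adjusted p = 0.0504).

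Carrier precursors enter through the outer membrane pore and are guided across by small chaperones. Of 12 tested genes of this import route, 2 were lower and 0 higher (16.7%, beside 12.5% of all genes called). Timm8a1, one of the small chaperones, read 2623 and 2458 against 1576 and 1614 (1.59-fold, adjusted p = 0.00328) and was also lower at its second probe set (1.83-fold). Tomm40, the pore, read 3016 and 3043 against 2230 and 2046 (1.42-fold, adjusted p = 0.0105). Timm9, Timm10 and Timm22, which handle the carriers directly, did not pass.

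Of 14 tested enzymes that use carried substrates, 5 were lower (35.7%, beside 5.82% of all genes) and 0 higher (beside 6.70%). Their median difference was -0.23. Glud1, glutamate dehydrogenase, read 4146 and 3987 against 2891 and 2774 (1.43-fold, adjusted p = 0.00651). The cytosolic enzymes of the malate-aspartate shuttle, Mdh1 and Got1, were 1.40-fold and 1.49-fold lower (adjusted p = 0.00677 and 0.00938). Further bright Mdh1 probe sets did not pass (0.219 and 0.0718). The mitochondrial partners Mdh2 and Got2 did not pass either. The brightest Got2 probe set read 7455 and 6776 against 6004 and 5776, without overlap (difference -0.27, adjusted p = 0.0799). Crat, carnitine acetyltransferase, had a log2 difference of -0.58 (0.0278). The fifth, Ogdh, was 1.36-fold lower (0.0324). For 7 genes of mitochondrial biogenesis limma called 0 at the brightest probe set, with 4 at an unadjusted p under 0.05, beside 3809 of all 13432 genes. All 7 differences were negative, with a median of -0.35. Ppargc1a, the coactivator that promotes mitochondrial biogenesis, read 410 and 380 against 238 and 283 (adjusted p = 0.0849) and was called lower at 1 of its 5 tested probe sets.

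**Figure D4:**
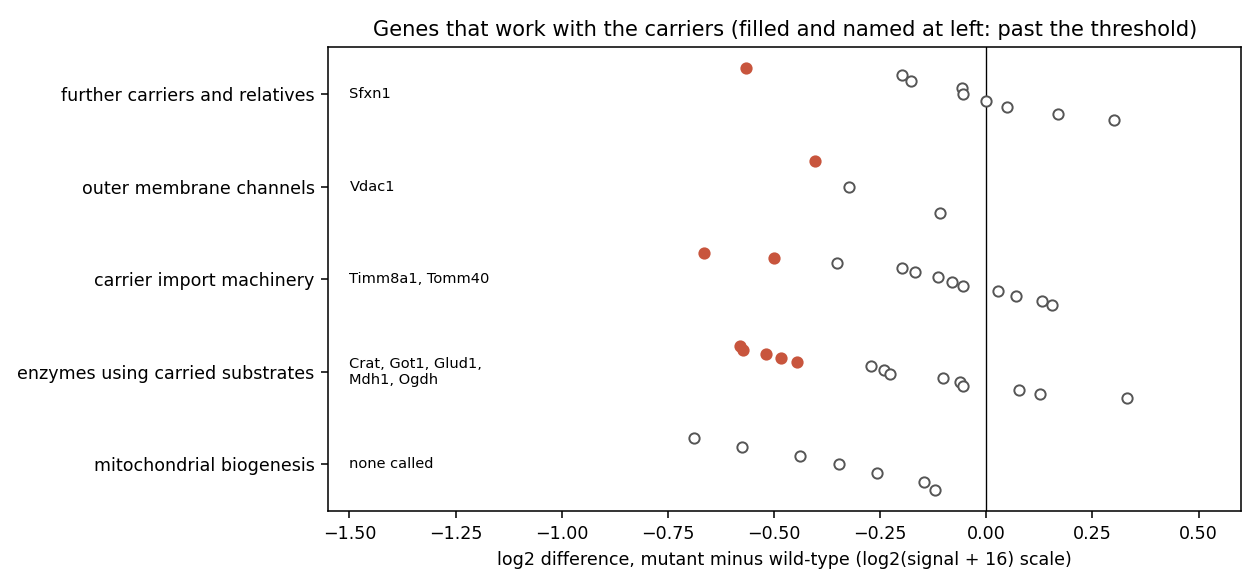
Log2 difference, mutant minus wild-type (horizontal axis, log2(signal + 16) scale), of genes that work with the carriers, in 5 lists, each gene at its brightest tested probe set. Filled points passed the adjusted p of 0.05 and are named at the left; the 9 filled points are all below 0.

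Markers of several cell types moved with the groups on these arrays. The counts of called markers stand beside 5.82% of all genes lower and 6.70% higher. The summed signal of the 10 proximal tubule markers was 7309 to 7701 in the wild-type pools, against 1101 to 1332 in the mutant pools, and 8 of 10 were lower. That of the 6 loop and distal tubule markers was 4500 to 5479 against 1072 to 1136, with 3 of 4 tested genes lower. Kidney stroma markers summed to 27292 to 30762 against 41212 to 41407, with 3 of 6 higher, and skeletal muscle markers to 945 to 1794 against 3523 to 3580, with 4 of 7 tested genes higher. Erythroid markers summed to 9991 to 10238 against 22804 to 23865. Ureteric bud markers summed to 7996 to 8641 against 5718 to 5752, with 1 of 6 lower, which was Calb1 (mean 5459 against 3141), while 3 of the 6 had a higher mean in the mutant. A single call among 6 genes does not set this list apart. Podocyte markers summed to 6254 to 6729 against 3049 to 3317, with 3 of 4 lower. The brown fat list (5960 to 7230 against 1754 to 1878) rested on Fabp4, which endothelial cells also express, while 3 of its 4 genes had a higher mean in the mutant. The adrenal cortex list summed to 651 to 812 against 501 to 517. Liver markers summed to 1398 to 1833 against 264 to 923. That sum rested on Afp, the 1 gene called, which read 1127 and 1562 against 69.7 and 520. Of the 4 liver markers, 2 had a lower and 2 a higher mean in the mutant. No marker was at a signal of 0 on all arrays, and the part of any of these cell types in the carrier differences was not tested.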

How the data were processed

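Total RNA of pooled whole kidneys was amplified in 1 round and hybridised to 4 arrays, per the labels' protocols. The deposited values are signal intensity per probe set on a linear scale; their 2% trimmed mean is the same on each array, and the scaling step is not given in the sources used here. GCOS is the tool named in the submitters' processing notes. The summary algorithm is not given in the sources used here.

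Signals were analysed as log2(signal + 16), which understates changes of dim genes; fold differences are on that scale. The 64 AFFX controls and the lowest 40% of probe sets by mean over the 4 arrays were left out, which kept mean signals from 94.2 upward. limma 3.58.1 in R 4.3.3 (lmFit, eBayes with an intensity trend; prior degrees of freedom 6.16) was fitted over 27022 probe sets, two-sided, with Benjamini-Hochberg adjustment over all of them and a threshold of 0.05. Intervals are at 95%. The fit was also run on simulated data, where the planted changes were larger than most of those called here, so that run does not vouch for these calls.

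The platform table names 34958 probe sets with a single gene, 932 with several (1 of them with a member, not used) and leaves 9211 unnamed; 34754 matched RefSeq by gene identifier and no symbol changed. Members and lists were chosen with earlier results of these data known. Named genes were those with a called probe set, the 4 brightest others, the role partners of called genes, and up to 4 called genes of each related list; other names were chosen after their values were seen. Replicate numbers did not pair the arrays. The number of arrays limits the precision.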

Additional observations from a re-analysis of the deposited data

How the results depend on the processing

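The alternatives were other normalization, pseudocounts of 1 and 64, other filters, other variance models, no _x_at or _s_at probe sets, a replicate block, 1 mean value a gene, and each array left out in turn. The 12 called probe sets gave 162 values under those that kept them, with the mean value a gene not counted. Of these values, 132 stayed past the threshold, 30 did not, and 0 changed sign. Slc25a5 supplied 6 of the 12 probe sets, which share 1 target, so the values are not independent. Most of the 30 came from the other called genes, above all from Slc25a3. Without the intensity trend, 2 probe sets and 0 genes were lower, and 0 probe sets and 0 genes higher, with 3.18% of all probe sets called. With arrays centred on their medians, 4 probe sets and 4 genes were higher. Without _x_at and _s_at probe sets, 5 probe sets were lower. With mean values, 1 gene was higher. The median difference of the tested probe sets, -0.156, was -0.135 with no filter and -0.0935 with quantile normalization. Leaving out 1 array gave 8 to 13 lower and 1 to 7 higher probe sets, 1 to 6 lower and 1 to 5 higher genes, and medians of -0.215 to -0.112, while 5.82% to 14.8% of all probe sets were called; the group left with 1 array is then assumed to vary like the other. The replicate numbers in the titles do not pair the arrays (correlation of deviations -0.0171), and the replicate block gave 11 lower and 2 higher probe sets.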
